A study of Mus musculus with 46 samples.

Results

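Gene expression in mouse BNST (bed nucleus of the stria terminalis) was compared between mice killed 7 d after, and mice killed immediately after, the last of repeated ethanol vapor sessions. The arrays were chosen by their labels alone: 4 CIE mice killed at 7 d and 6 CIE mice killed at 0 h, which is 10 of 46 arrays. Adult male C57BL/6J mice had been exposed to chronic intermittent ethanol (CIE) in 4 cycles, each of 4 days with 16 h of vapor a day, and cycles were 7 d apart. Before each cycle CIE mice were injected with ethanol at 1.6 g/kg and with pyrazole, an inhibitor of alcohol dehydrogenase, at 1 mmol/kg. Control (Ctrl) mice breathed air and received saline with the same pyrazole, so the drug was common to every group and no group was untreated. Ctrl mice at 7 d (n = 6) and at 0 h (n = 6) are given beside the CIE mice, and the CIE and Ctrl groups killed at 8 h and 72 h entered the fit for the estimate of the spread. Each array held the RNA of 1 mouse. Time since the last vapor session, the last injection and the last handling cannot be told apart in these groups.

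The BNST is a small nucleus of the extended amygdala, built mainly of GABA neurons, that links the amygdala to the hypothalamus and brainstem and takes part in stress and anxiety-like states. In the stress axis, glucocorticoid hormone from the adrenal gland enters brain cells, binds its receptor and changes the transcription of many genes in neurons, glia and vessels. Interferons, protein folding stress and oxidative stress each switch on a set of genes of their own. The comparison asks which transcripts differed between the start and the end of a week without vapor, and whether the change differed from that over the same week in air-breathing mice.

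All values are log2 intensities as deposited, 1 per probeset, so that a difference of 1 is a factor of 2. The medians of the 10 arrays lay between 6.78 and 6.79, and the lowest correlation of any 2 of them was 0.993 over 45037 probesets. Markers of the labelled tissue were present: Gad1, an enzyme that makes GABA, averaged 13.03 over all arrays, above 99.4% of probesets, and Crh, a stress peptide of BNST neurons, averaged 10.21, above 88.6%. Tissue beside the nucleus was unevenly represented. The mean level of 14 striatal neuron markers was 10.95 in CIE 7 d replicate 27, against 10.11 to 10.35 in the other CIE 7 d mice, and 10.77 in CIE 0 h replicate 67, against 9.72 to 10.27 in the other CIE 0 h mice. These mice also had the lowest mean level of 9 hypothalamic markers in their groups, 7.29 in replicate 27 and 7.74 in replicate 67. In Ctrl mice the striatal level spanned 9.27 to 11.04 at 7 d, lowest in replicate 62 and highest in replicate 36, and 9.37 to 10.12 at 0 h, and the hypothalamic level 7.45 to 8.72 at 7 d and 8.09 to 8.69 at 0 h. The mean level of 10 thalamic markers was 9.72 in CIE 7 d replicate 59, against 9.10 to 9.19 in the other CIE 7 d mice. It spanned 9.18 to 9.55 over the CIE 0 h mice. In Ctrl 0 h replicate 48 it was 10.05, against 9.15 to 9.53 in the other Ctrl 0 h mice. In Ctrl 7 d replicate 80 it was 9.92, against 9.08 to 9.33 in the other Ctrl 7 d mice. Each difference between CIE and Ctrl mice below includes these mice, and the part of neighbouring tissue in it was not tested. No member of the striatal, cortical, thalamic, hypothalamic or cholinergic marker lists was called between CIE 7 d and CIE 0 h, beside 3.52% of all genes. These CIE groups overlapped in the mean level of each of these lists. All 14 striatal markers had a mean change above 0 in CIE mice (median 0.31, 0 with an unadjusted p under 0.05 by limma). In Ctrl mice their median change was 0.55, and 11 had an unadjusted p under 0.05. The part of neighbouring tissue in these changes was not tested.

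Between CIE 7 d and CIE 0 h, 1122 of 45037 probesets (2.49%) were called, which here means an adjusted p of 0.01 or less (limma, Benjamini-Hochberg over all probesets). Of these, 320 (0.711%) were higher and 802 (1.78%) were lower at 7 d. Called changes had a median size of 0.40 on the log2 scale, with 8 probesets over 2-fold higher and 72 over 2-fold lower. When each of 18193 genes was represented by its brightest probeset, 640 genes (3.52%) were called, 145 higher (0.797%) and 495 lower (2.72%). The median change over all genes was -0.0015. In 1173 genes (6.45%) every CIE 7 d mouse lay below every CIE 0 h mouse, and in 625 (3.44%) every CIE 7 d mouse lay above. The count of called probesets was 758 without CIE 7 d replicate 27 and 1042 without CIE 0 h replicate 67.

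Ctrl mice changed over the same week. Between Ctrl 7 d and Ctrl 0 h, 1006 probesets were called (2.23%), 136 higher (0.302%) and 870 lower (1.93%). By gene, 535 were called (2.94%), 43 higher (0.236%) and 492 lower (2.7%). The Ctrl count varied with single arrays: it was 2129 without Ctrl 0 h replicate 48, between 532 and 646 without Ctrl 0 h replicate 12 or 64 or Ctrl 7 d replicate 28 or 36, and 130 when the fit held the Ctrl 7 d and Ctrl 0 h arrays alone. The CIE and Ctrl comparisons share no array. They had 256 lower probesets in common, 31.9% of those lower in CIE and 29.4% of those lower in Ctrl, and 13 higher probesets in common (4.06% of those higher in CIE and 9.56% of those higher in Ctrl). The difference between the CIE and Ctrl changes was tested in the same fit and was called for 197 probesets (0.437%) and 95 genes (0.522%). Without CIE 0 h replicate 57 or CIE 7 d replicate 59 or 65 it was called for 126 to 131 probesets, and for 99 when the fit held the 4 groups of 0 h and 7 d alone. Of the 640 genes called in CIE mice, the difference was called for 75 and not for 565, and a difference that misses the threshold does not show that CIE and Ctrl mice changed alike.

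**Figure D1:**
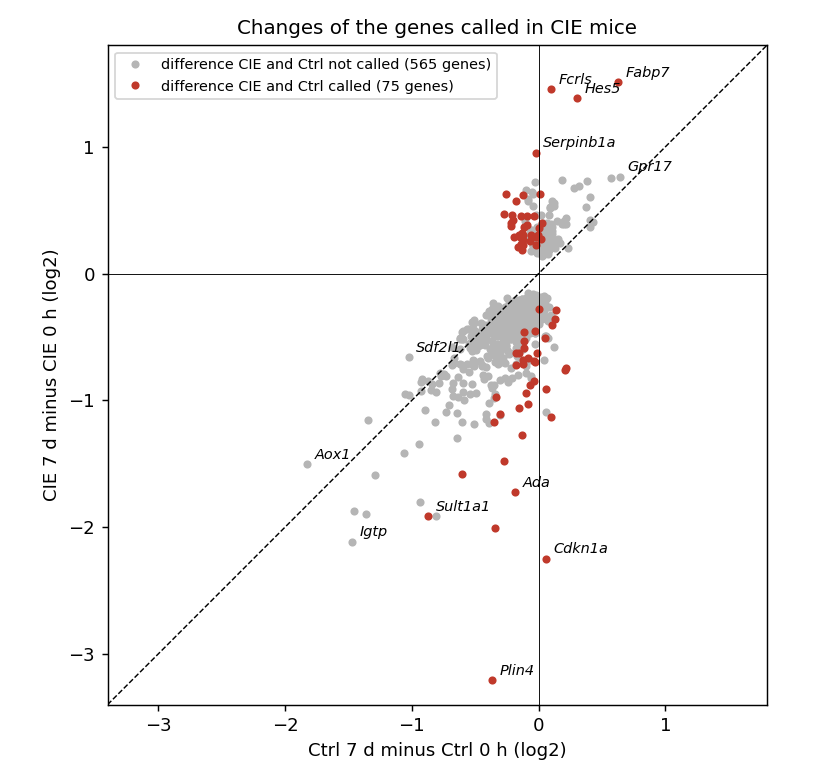
Each point is 1 of the 640 genes called between CIE 7 d and CIE 0 h, with its log2 change in Ctrl mice on the horizontal axis and in CIE mice on the vertical axis, and the dashed line marks equal changes. The 75 red points are genes for which the difference of the changes was called, among them Plin4, Cdkn1a and Ada with Ctrl changes of -0.37, 0.06 and -0.19, while Igtp and Aox1 lie low on both axes.

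Genes that glucocorticoids induce were the list with the most falls. Of 30 measured members, 23 were lower at 7 d in CIE mice, 0 were higher and 7 were not called, beside 2.72% lower among all genes. The median change of the list was -0.71. In Ctrl mice 7 members were lower (beside 2.7% of all genes), with a median of -0.16 beside -0.02 over all genes, and the difference between CIE and Ctrl was called for 11 members, each with the more negative change in CIE. In 23 members every CIE 7 d mouse lay below every CIE 0 h mouse, beside 6.45% of all genes. The mean level of the list spanned 9.45 to 9.55 over the CIE 7 d mice and 10.30 to 10.52 over the CIE 0 h mice, against 9.43 to 9.65 over the Ctrl 7 d mice and 9.61 to 9.82 over the Ctrl 0 h mice.

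Plin4, a coat protein of lipid droplets, had the most negative change of the 18193 genes. It read 6.69, 6.77, 7.31 and 7.21 in the CIE 7 d mice, against 9.86, 10.14 and 10.66 (lowest, median and highest, as for all groups of 6 below) in the CIE 0 h mice. Every CIE 7 d mouse lay more than 2 log2 units below every CIE 0 h mouse. The change was -3.21 ± 0.19 (SE, as for all changes below), a 9.24-fold fall (adjusted p = 2.49e-15), against -0.37 ± 0.17 in Ctrl mice (adjusted p = 0.202), and the difference was called (-2.84 ± 0.26, adjusted p = 9.52e-10). Cdkn1a, an inhibitor of cyclin-dependent kinases that halts the cell cycle, read 7.97, 8.03, 7.77 and 8.02 in CIE 7 d mice, against 9.92, 10.08 and 10.60 in CIE 0 h mice. Ctrl mice averaged 8.00 at 7 d and 7.94 at 0 h, near the CIE 7 d mice. The change was -2.25 ± 0.15 in CIE mice (4.76-fold, adjusted p = 1.14e-14) and 0.06 ± 0.13 in Ctrl mice (adjusted p = 0.852).

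Arrdc2, an arrestin-domain protein, spanned 7.37 to 7.79 in CIE 7 d mice and 9.37 to 9.91 in CIE 0 h mice, a 4.01-fold fall (adjusted p = 3.85e-11). Sult1a1, a sulfotransferase of phenols and drugs, changed by -1.92 ± 0.12 in CIE mice (adjusted p = 3.07e-15). It was also called in Ctrl mice, at -0.87 ± 0.11 (adjusted p = 5.45e-07), and the difference was called too (-1.05 ± 0.16, adjusted p = 0.000153). Pdk4, a kinase that turns off pyruvate dehydrogenase and so shifts fuel use from glucose to fat, had the same pattern, with -1.58 ± 0.16 in CIE mice, -0.61 ± 0.14 in Ctrl mice and a called difference (adjusted p = 0.00789) that was lost in 13 of 22 fits without 1 array of these 4 groups (up to 0.0239). Ddit4, a brake on mTOR signalling, changed by -1.17 ± 0.12 in CIE mice with a called difference from Ctrl mice (adjusted p = 0.00261, and 0.01031 without CIE 7 d replicate 65).

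Fkbp5, a co-chaperone that lowers the affinity of the glucocorticoid receptor for its hormone, read 9.60, 9.53, 9.68 and 9.53 in CIE 7 d mice, against 10.12, 10.33 and 10.55 in CIE 0 h mice. The groups did not overlap. Its change was -0.74 ± 0.09 in CIE mice (adjusted p = 9.39e-08), against 0.21 ± 0.08 in Ctrl mice (adjusted p = 0.0953), and the difference was called (-0.96 ± 0.12, adjusted p = 3.08e-06). Tsc22d3, a leucine zipper protein that carries part of the anti-inflammatory action of the hormone, changed by -0.71 ± 0.09 in CIE mice (adjusted p = 2.47e-07), while its difference from Ctrl mice was not called (-0.53 ± 0.12, adjusted p = 0.0116). Htra1, a secreted serine protease, spanned 11.52 to 11.62 in CIE 7 d mice and 12.09 to 12.44 in CIE 0 h mice, with a called difference from Ctrl mice (-0.67 ± 0.08, adjusted p = 4.07e-06). Nfkbia, the inhibitor that holds NF-kB in the cytoplasm, changed by -0.67 ± 0.09 in CIE mice with a called difference (-0.58 ± 0.12, adjusted p = 0.00789) that was lost in 14 of the 22 fits without 1 array (up to 0.0401). Cebpd, a transcription factor of acute-phase responses, changed by -1.17 ± 0.12 in CIE and -0.60 ± 0.11 in Ctrl mice, both called. Gjb6, an astrocyte gap junction protein, changed by -0.94 ± 0.09 in CIE and -0.60 ± 0.08 in Ctrl mice, again both called, and for neither gene was the difference called (adjusted p = 0.0622 for Cebpd and 0.161 for Gjb6).

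Sgk1, a kinase that regulates ion channels and transporters and a well-known target of the glucocorticoid receptor, read 11.75, 11.95, 12.02 and 11.78 in CIE 7 d mice, against 12.84, 12.95 and 13.16 in CIE 0 h mice. The groups did not overlap. The change was -1.12 ± 0.15 in CIE mice (2.17-fold, adjusted p = 8.43e-07) and -0.30 ± 0.13 in Ctrl mice (adjusted p = 0.159), and the difference was not called (-0.81 ± 0.20, adjusted p = 0.0242). A promoter of Sgk1 is shown because this list had 1 member whose promoter held the full palindrome that the receptor binds as a dimer (AGAACA, any 3 bases and TGTTCT, which reads the same on both strands). The palindrome was in 0.0111% of 27025 genes with a RefSeq promoter, and in 1 of the 25 list members with one. The window runs from 250 bases before to 50 after the start of transcription (chr10:21993640-21993939, plus strand, GRCm38.p6, 1 of 6 promoters that RefSeq gives for the gene), and capitals mark the match.
Sgk1: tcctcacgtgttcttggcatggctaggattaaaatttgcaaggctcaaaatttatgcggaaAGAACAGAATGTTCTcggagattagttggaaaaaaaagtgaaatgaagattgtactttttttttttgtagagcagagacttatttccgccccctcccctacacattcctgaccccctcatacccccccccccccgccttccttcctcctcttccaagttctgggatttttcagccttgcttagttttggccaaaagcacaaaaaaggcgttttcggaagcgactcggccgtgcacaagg

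**Figure D2:**
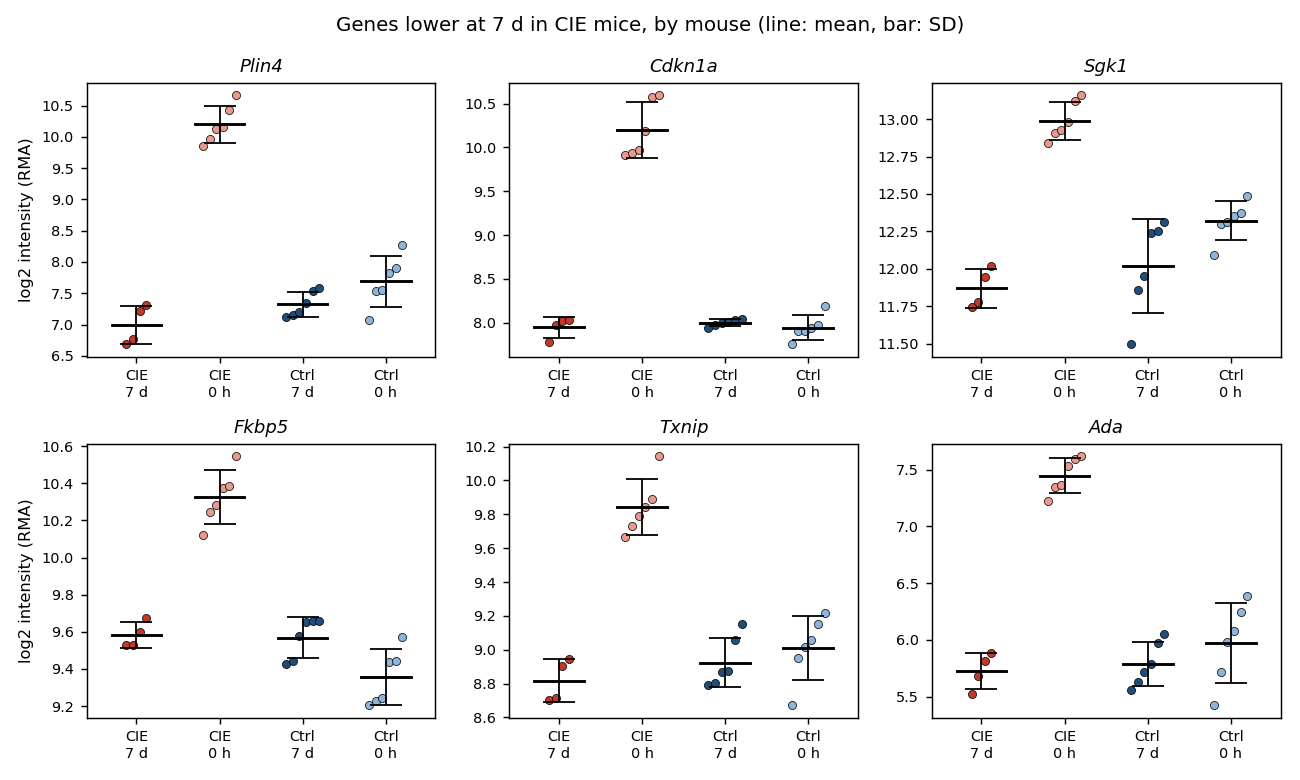
Log2 intensity of 6 genes in each CIE 7 d, CIE 0 h, Ctrl 7 d and Ctrl 0 h mouse (points), with the group mean (line) and SD (bar). In Plin4, Cdkn1a, Sgk1, Fkbp5, Txnip and Ada all CIE 7 d mice lie below all CIE 0 h mice.

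Targets of FOXO factors and brakes on insulin and mTOR signalling had 7 lower and 0 higher of 18 members in CIE mice (median -0.18, beside 2.72% lower among all genes) and 0 lower in Ctrl mice (median -0.04, beside 2.7%). The difference was called for 4 members. Ddit4 and Klf15 belong to this list and to the glucocorticoid list. Txnip, an arrestin-domain protein that curbs glucose uptake and binds thioredoxin, read 8.95, 8.91, 8.72 and 8.70 in CIE 7 d mice, against 9.67, 9.82 and 10.14 in CIE 0 h mice. The 12 Ctrl mice of 7 d and 0 h spanned 8.67 to 9.22, below every CIE 0 h mouse. Its change was -1.03 ± 0.10 in CIE mice (adjusted p = 7.87e-10) and -0.09 ± 0.09 in Ctrl mice (adjusted p = 0.622), with a called difference (adjusted p = 5.42e-05). Arrdc3, of the same protein family, changed by -0.68 ± 0.08 in CIE mice with a called difference (-0.56 ± 0.11, adjusted p = 0.00274). Klf15, a transcription factor of amino acid and fuel metabolism, changed by -0.63 ± 0.10 in CIE mice, and its difference from Ctrl mice was not called (adjusted p = 0.069). The Txnip promoter is shown for its FOXO site (GTAAACA, searched on both strands), which 4.05% of genes and 3 of the 14 members with a promoter held (chr3:96557707-96558006, plus strand, GRCm38.p6, RefSeq, the same window).
Txnip: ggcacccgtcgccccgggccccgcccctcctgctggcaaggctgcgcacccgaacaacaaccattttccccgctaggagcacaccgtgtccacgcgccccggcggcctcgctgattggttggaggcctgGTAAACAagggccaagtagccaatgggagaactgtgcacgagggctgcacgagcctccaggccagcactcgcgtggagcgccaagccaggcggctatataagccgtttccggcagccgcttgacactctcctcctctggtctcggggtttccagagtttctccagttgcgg

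Other genes were lower in CIE mice with a called difference from Ctrl mice. Ada, which breaks down adenosine, read 5.88, 5.53, 5.68 and 5.82 in CIE 7 d mice, against 7.23, 7.45 and 7.62 in CIE 0 h mice. Its change was -1.72 ± 0.18 in CIE mice (3.30-fold, adjusted p = 3.97e-09) and -0.19 ± 0.16 in Ctrl mice (adjusted p = 0.54), and the difference was called (-1.54 ± 0.24, adjusted p = 0.000186). Ada was 1 of 2 called members among 12 genes of adenosine and purine handling, beside 3.52% called among all genes. The other was Xdh, the enzyme that makes uric acid (-0.83 ± 0.12 in CIE mice), whose difference from Ctrl mice was not called. Gabrr2, a rho subunit of GABA-gated chloride channels, changed by -1.27 ± 0.18 in CIE mice (adjusted p = 3.28e-06). It was the 1 called member of 18 GABA genes, beside 3.52% called among all genes. Its difference from Ctrl mice was called (-1.14 ± 0.24, adjusted p = 0.0066) and was lost in 12 of the 22 fits without 1 array (up to 0.024). Hmgb2, a chromatin protein abundant in dividing cells, spanned 7.32 to 7.67 in CIE 7 d mice, against 8.19 to 8.70 in CIE 0 h mice and 7.20 to 7.64 in the 12 Ctrl mice. The predicted gene Gm19439 changed by -1.48 ± 0.17 in CIE mice (adjusted p of the difference 0.00249, and 0.01033 without CIE 7 d replicate 27). Fbln5, an elastic fiber protein, changed by -1.80 ± 0.14 in CIE and -0.94 ± 0.13 in Ctrl mice, both called, and its difference missed the threshold (adjusted p = 0.0119).

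Interferon-stimulated genes, which cells switch on against viruses, had 14 lower, 0 higher and 12 not called of 26 measured members in CIE mice, with a median of -0.72, beside 2.72% lower among all genes. In Ctrl mice 12 were lower (beside 2.7%) and 0 higher, with a median of -0.50, and the difference was called for 0 of the 26 by limma (1 had an unadjusted p under 0.05). In 19 members every CIE 7 d mouse lay below every CIE 0 h mouse, beside 6.45% of all genes. MHC class I presentation, which displays peptides to T cells, had 7 of 11 members lower in CIE mice (median -1.09, beside the same 2.72%) and 1 lower in Ctrl mice (median -0.42, beside 2.7%), again with 0 called differences (3 with an unadjusted p under 0.05). An unadjusted p under 0.05 (limma) was reached by 9 of the 11 in CIE mice and by 10 in Ctrl mice. Without CIE 7 d replicate 59 the MHC count in CIE mice was 4. In bulk tissue, fewer cells of a type and less RNA per cell cannot be told apart.

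Igtp, a GTPase that defends cells against parasites in vacuoles, read 7.88, 7.78, 8.16 and 7.41 in CIE 7 d mice, against 9.32, 9.86 and 10.68 in CIE 0 h mice. The 0 h mice were more spread (SD 0.55) than the 7 d mice (SD 0.31), and the groups did not overlap. The change was -2.11 ± 0.36 in CIE mice (4.33-fold, adjusted p = 8.66e-05) and -1.47 ± 0.32 in Ctrl mice (adjusted p = 0.00335). The related GTPases Irgm2, Irgm1 and Gbp6 changed by -1.88, -1.42 and -1.90 in CIE mice and by -1.46, -1.06 and -1.36 in Ctrl mice, all called. Rtp4, a receptor chaperone induced by interferon, changed by -1.35 ± 0.18 in CIE mice, and Oasl2, a relative of the oligoadenylate synthetases, by -1.10 ± 0.24, both called. In Ctrl mice Rtp4 was also called lower, and Oasl2 was not called. H2-K1, a class I heavy chain, read 11.02, 11.02, 10.85 and 10.63 in CIE 7 d mice, against 11.71, 12.06 and 12.34 in CIE 0 h mice. The change was -1.15 ± 0.21 in CIE mice (adjusted p = 0.000268) and -0.42 ± 0.19 in Ctrl mice (adjusted p = 0.181). Nlrc5, which turns on class I genes, changed by -1.59 ± 0.34, the peptide transporter Tap1 by -1.29 ± 0.24 and the immunoproteasome subunit Psmb9 by -1.17 ± 0.25 in CIE mice, all called. Nlrc5 was also called in Ctrl mice (-1.29 ± 0.31, adjusted p = 0.00717), and Tap1 and Psmb9 were not. The difference for Nlrc5 was not called (adjusted p = 0.903). H2-Aa, a class II chain of antigen-presenting cells, changed by -1.91 ± 0.39 in CIE mice (adjusted p = 0.00113) and by -0.81 ± 0.35 in Ctrl mice (adjusted p = 0.156). Its difference was not called (-1.10 ± 0.52, adjusted p = 0.438). The call of Oasl2 was lost in 4 of the 22 fits without 1 array (adjusted p up to 0.0133), that of Nlrc5 without CIE 7 d replicate 65 (0.0116) and that of Psmb9 without CIE 7 d replicate 59 (0.0139). Of the 22 fits 12 left out a Ctrl array, which can alter a call in CIE mice only through the estimate of the spread.

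Of 19 microglial markers 0 were lower in CIE mice, beside 2.72% of all genes. Their mean level spanned 9.20 to 9.47 in CIE 7 d mice and 8.96 to 9.38 in CIE 0 h mice. The part of cell numbers in the immune genes was not tested. Ifit1, which binds viral RNA, read 6.56, 6.25, 6.01 and 6.39 in CIE 7 d mice, against 7.00, 7.43 and 7.79 in CIE 0 h mice, without overlap. Its change was -1.08 ± 0.19 in CIE mice (adjusted p = 0.000166) and -0.90 ± 0.17 in Ctrl mice (adjusted p = 0.000738). The promoters of Igtp and Ifit1 are shown because both genes were lower in CIE and in Ctrl mice and both windows held the core of the interferon-stimulated response element (GAAA, any 2 bases and GAAA, searched on both strands, in capitals). This core was in 3.99% of genes with a promoter, in 13 of the 19 interferon members with one and in 1 of the 9 MHC class I members with one. The windows are chr11:58199306-58199605 for Igtp and chr19:34640639-34640938 for Ifit1, both on the plus strand of GRCm38.p6, and the Ifit1 window held 2 matches.
Igtp: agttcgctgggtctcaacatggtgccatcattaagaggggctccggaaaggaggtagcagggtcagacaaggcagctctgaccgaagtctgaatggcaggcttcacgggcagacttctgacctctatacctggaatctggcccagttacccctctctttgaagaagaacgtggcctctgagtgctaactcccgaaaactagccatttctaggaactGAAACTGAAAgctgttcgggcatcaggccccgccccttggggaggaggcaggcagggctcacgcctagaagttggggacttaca
Ifit1: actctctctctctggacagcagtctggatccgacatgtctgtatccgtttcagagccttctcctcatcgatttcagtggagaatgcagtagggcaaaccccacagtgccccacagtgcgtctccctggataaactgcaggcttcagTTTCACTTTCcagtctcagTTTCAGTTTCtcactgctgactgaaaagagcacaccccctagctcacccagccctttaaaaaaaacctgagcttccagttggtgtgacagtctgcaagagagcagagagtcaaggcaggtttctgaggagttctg

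Some genes of protein folding in the endoplasmic reticulum (ER) were lower in CIE mice, and some in Ctrl mice. In CIE mice 9 of 24 members were lower (median -0.17, beside 2.72% lower among all genes), in Ctrl mice 12 (median -0.20, beside 2.7%), 0 were higher in either, and the difference was called for 0 (5 with an unadjusted p under 0.05). Sdf2l1, a protein of the ER lumen, read 7.96, 8.09, 7.95 and 7.98 in CIE 7 d mice, against 8.53, 8.60 and 8.93 in CIE 0 h mice. Its change was -0.66 ± 0.09 in CIE mice (adjusted p = 5.69e-07) and -1.02 ± 0.08 in Ctrl mice (adjusted p = 7.53e-13). Manf, a secreted factor induced by ER stress, changed by -0.54 ± 0.05 in CIE and -0.53 ± 0.05 in Ctrl mice, and Dnajb9, a co-chaperone, by -0.30 ± 0.04 in CIE and -0.22 ± 0.04 in Ctrl mice, all called. Hspa5, the main ER chaperone, read 12.10, 12.27, 12.13 and 12.10 in CIE 7 d mice, against 12.44, 12.49 and 12.55 in CIE 0 h mice. The change was small, -0.34 ± 0.06 in CIE mice (1.27-fold, adjusted p = 0.000269) and -0.36 ± 0.06 in Ctrl mice (adjusted p = 4.66e-05), yet the CIE groups did not overlap. Cytosolic heat shock proteins had 1 higher and 0 lower of 20 in CIE mice, beside 0.797% higher and 2.72% lower among all genes. The member that rose was Hsph1 (0.19 ± 0.04, adjusted p = 0.00281, and 0.0457 without CIE 7 d replicate 59). In Ctrl mice 0 members were higher and 3 lower (beside 2.7% lower). The list had a median of 0.05 in CIE and -0.13 in Ctrl mice. The difference was called for 0 of the 20, and 13 had an unadjusted p under 0.05 (limma). The Hspa5 promoter is shown for its ER stress element (CCAAT, any 9 bases and CCACG, searched on both strands), which 0.137% of genes and 8 of the 21 members with a promoter held (chr2:34771840-34772139, plus strand, GRCm38.p6).
Hspa5: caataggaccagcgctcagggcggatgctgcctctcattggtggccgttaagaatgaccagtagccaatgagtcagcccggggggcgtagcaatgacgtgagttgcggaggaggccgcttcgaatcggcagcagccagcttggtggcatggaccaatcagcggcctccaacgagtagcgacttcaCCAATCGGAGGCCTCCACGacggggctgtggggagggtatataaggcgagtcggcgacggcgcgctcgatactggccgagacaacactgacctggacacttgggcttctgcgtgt

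The NRF2 program, which makes enzymes of antioxidant defence and conjugation, had 6 lower of 16 members in CIE mice (beside 2.72% of all genes) and 6 in Ctrl mice (beside 2.7%), 0 higher in either, with medians of -0.21 in CIE and -0.26 in Ctrl mice. Aox1, an oxidase of aldehydes and drugs, read 7.55, 7.41, 7.54 and 7.69 in CIE 7 d mice, against 8.94, 9.05 and 9.16 in CIE 0 h mice. Ctrl mice averaged 7.56 ± 0.16 (SD, n = 6) at 7 d and 9.38 ± 0.15 (SD, n = 6) at 0 h. The change was -1.51 ± 0.10 in CIE mice (adjusted p = 7.07e-15) and -1.82 ± 0.09 in Ctrl mice (adjusted p = 3.79e-19), and the difference was not called (adjusted p = 0.315). Gstm1, a glutathione transferase, changed by -0.87 ± 0.06 in CIE and -0.84 ± 0.06 in Ctrl mice, both called. Nqo1, a quinone reductase, changed by -0.91 ± 0.10 in CIE and -0.69 ± 0.09 in Ctrl mice, and Srxn1, which repairs peroxiredoxins, by -0.57 ± 0.06 in CIE and -0.36 ± 0.05 in Ctrl mice, all called. Of 13 enzymes of ethanol, acetaldehyde and acetate, 2 were lower in CIE mice (beside 2.72% of all genes) and 3 in Ctrl mice (beside 2.7%). Those lower in CIE mice were Aldh1a1, a cytosolic aldehyde dehydrogenase (-0.79 ± 0.16 in CIE and -0.74 ± 0.14 in Ctrl mice), and Aldh1l1, a folate enzyme of astrocytes (-0.38 ± 0.08 in CIE and -0.52 ± 0.07 in Ctrl mice), both also called in Ctrl mice. Without CIE 7 d replicate 27 neither was called in CIE mice (adjusted p = 0.0166 for Aldh1a1 and 0.01001 for Aldh1l1).

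**Figure D3:**
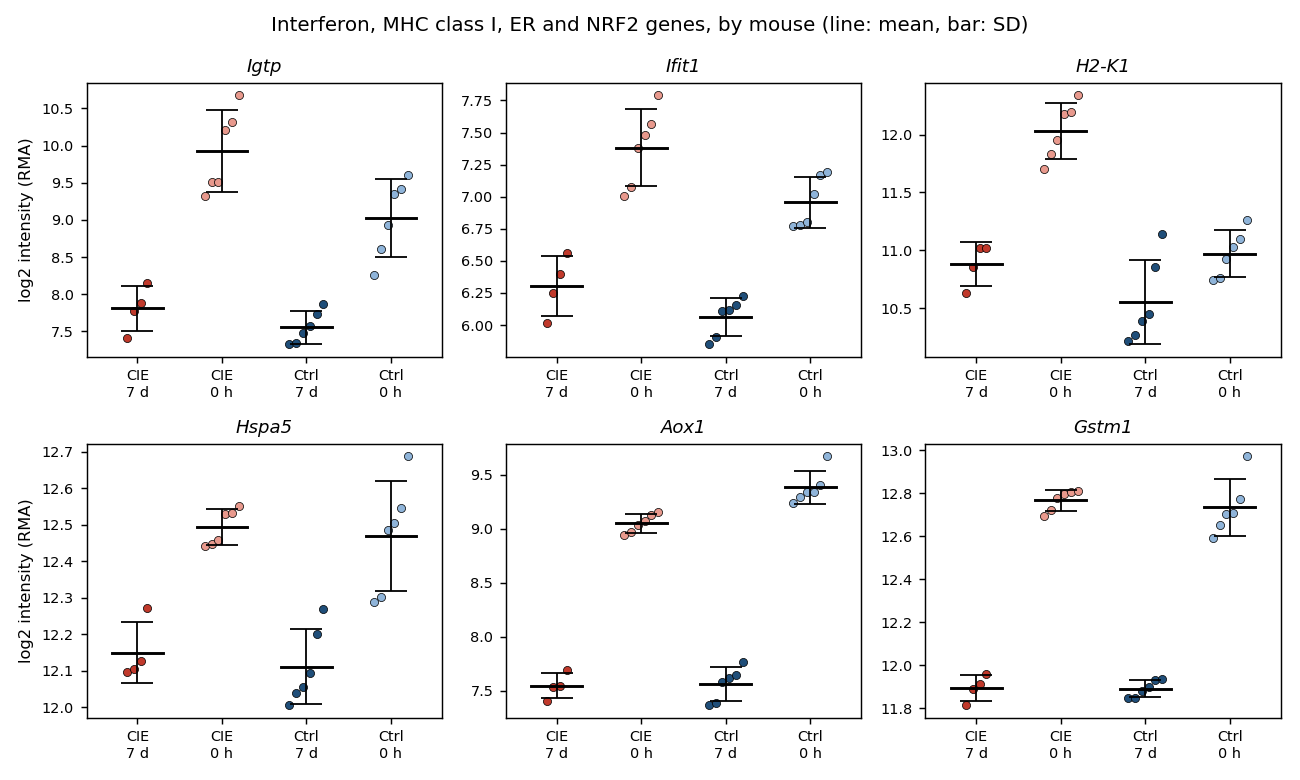
Log2 intensity of 6 genes in each CIE 7 d, CIE 0 h, Ctrl 7 d and Ctrl 0 h mouse (points), with the group mean (line) and SD (bar). Igtp, Ifit1, Hspa5, Aox1 and Gstm1 were called lower at 7 d in both treatments. H2-K1 was called in CIE mice, and its Ctrl 7 d (10.22 to 11.14) and Ctrl 0 h (10.74 to 11.26) mice overlapped. The difference between its CIE and Ctrl changes was not called.

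Smaller lists held a few falls each in CIE mice, beside 2.72% lower among all genes. The difference from Ctrl mice was called for none of the genes named in this paragraph. Of 21 genes of cholesterol and fatty acid synthesis 3 were lower in CIE mice: Insig1, a sterol sensor (-0.62 ± 0.09), Scd1, a fatty acid desaturase (-0.47 ± 0.07), and Sc5d, a sterol desaturase (-0.24 ± 0.06). In Ctrl mice 1 of the 21 was lower, Scd1, beside 2.7% of all genes. Of 10 genes of reactive astrocytes and complement 3 were lower in CIE mice, the protease inhibitor Serpina3n (-0.55 ± 0.12), the oncostatin M receptor Osmr (-0.49 ± 0.11) and the sphingosine phosphate receptor S1pr3 (-0.24 ± 0.06). In Ctrl mice 2 of the 10 were lower, Osmr among them, beside the same 2.7%. Cebpb, a partner of Cebpd, changed by -0.52 ± 0.07 in CIE mice. Slc2a1, the glucose transporter of brain vessels, changed by -0.43 ± 0.08, the potassium channel Kcna1 by -0.47 ± 0.11 and the acetyltransferase Kat2b by -0.40 ± 0.08 in CIE mice, all called. Kl, a protein of the choroid plexus, changed by -0.46 ± 0.09 in CIE mice, and the mean level of 15 choroid plexus and ependyma markers spanned 5.56 to 5.81 in CIE 7 d mice and 5.65 to 5.96 in CIE 0 h mice. The part of choroid plexus tissue was not tested. In the 22 fits without 1 array the call was lost 9 times for S1pr3 (adjusted p up to 0.0489), 9 for Sc5d (0.0476) and 7 for Kcna1 (0.0463). It was lost for Serpina3n without CIE 7 d replicate 27 (0.0194), and for Osmr (0.0134) and Kl (0.0231) without CIE 7 d replicate 45.

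The genes that rose were spread over many lists. The Notch list (3 higher and 2 lower of 20) and the endothelial list (3 higher and 1 lower of 15) had the most members called higher, beside 0.797% of all genes. Fabp7, a fatty acid carrier of radial glia and astrocytes, had the most positive change of the 18193 genes. It read 10.52, 10.57, 10.59 and 10.55 in CIE 7 d mice, against 8.76, 9.04 and 9.30 in CIE 0 h mice. The CIE 7 d mice were close together (SD 0.03) and all above the CIE 0 h mice. The change was 1.51 ± 0.12 in CIE mice (2.85-fold, adjusted p = 1.43e-12) and 0.63 ± 0.10 in Ctrl mice (adjusted p = 0.000129), and the difference was called (0.88 ± 0.16, adjusted p = 0.000983).

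Fcrls, an Fc receptor-like protein of resident microglia, read 9.03, 8.77, 8.80 and 8.81 in CIE 7 d mice, against 7.15, 7.46 and 7.55 in CIE 0 h mice. The 12 Ctrl mice of 7 d and 0 h spanned 8.50 to 8.94, above every CIE 0 h mouse. Its change was 1.45 ± 0.09 in CIE mice (adjusted p = 2.49e-15) and 0.10 ± 0.08 in Ctrl mice (adjusted p = 0.511), and the difference of the changes was called (1.36 ± 0.12, adjusted p = 6.24e-10). Of the 19 microglial markers 2 rose (beside 0.797% of all genes), the other being Olfml3 (0.63 ± 0.13, adjusted p = 0.000998), and the median of the list was 0.09. Mfge8, which tags dying cells for engulfment, spanned 11.04 to 11.29 in CIE 7 d mice and 10.34 to 10.56 in CIE 0 h mice, and changed by 0.73 ± 0.06 in CIE and 0.38 ± 0.05 in Ctrl mice, both called. Serpinb1a, an inhibitor of neutrophil proteases, rose by 0.95 ± 0.15 in CIE mice (adjusted p = 1.81e-05), against -0.02 ± 0.13 in Ctrl mice (adjusted p = 0.948), and the difference was called (adjusted p = 0.00439), a call lost in 5 of the 22 fits without 1 array (up to 0.0177). Vcam1, an adhesion molecule for leukocytes, rose by 0.68 ± 0.09 in CIE mice, and its difference from Ctrl mice was not called (adjusted p = 0.131).

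Hes5, a repressor through which Notch keeps progenitors undifferentiated, read 8.93, 8.91, 9.24 and 8.88 in CIE 7 d mice, against 7.42, 7.54 and 7.92 in CIE 0 h mice. The groups did not overlap. The change was 1.38 ± 0.12 in CIE mice (2.61-fold, adjusted p = 6.77e-11) and 0.30 ± 0.11 in Ctrl mice (adjusted p = 0.0884), with a called difference (1.08 ± 0.17, adjusted p = 0.000153). Notch1, a receptor of the pathway, rose by 0.35 ± 0.06 in CIE mice, and Nrarp, a feedback inhibitor, by 0.41 ± 0.09 in CIE and 0.43 ± 0.08 in Ctrl mice, with its CIE call lost in 6 of the 22 fits without 1 array (adjusted p up to 0.0293). Hey2, another repressor of the pathway, changed by -0.47 ± 0.09 in CIE and -0.45 ± 0.08 in Ctrl mice, both called (for CIE mice with an adjusted p of 0.0122 without CIE 7 d replicate 45), so that called members of this list moved in both directions. The Hes5 promoter is shown for its sites of RBPJ, the DNA-binding partner of Notch (GTGGGAA, searched on both strands). The motif was in 7.25% of genes and in 3 of the 16 members with a promoter, and this window (chr4:154960673-154960972, plus strand, GRCm38.p6) held 2 matches.
Hes5: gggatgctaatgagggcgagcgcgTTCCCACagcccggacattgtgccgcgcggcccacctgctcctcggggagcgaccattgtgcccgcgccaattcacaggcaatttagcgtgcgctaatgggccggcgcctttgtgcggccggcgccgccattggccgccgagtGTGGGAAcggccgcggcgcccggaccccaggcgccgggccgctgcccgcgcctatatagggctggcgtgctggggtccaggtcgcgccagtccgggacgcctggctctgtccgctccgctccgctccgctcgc

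**Figure D4:**
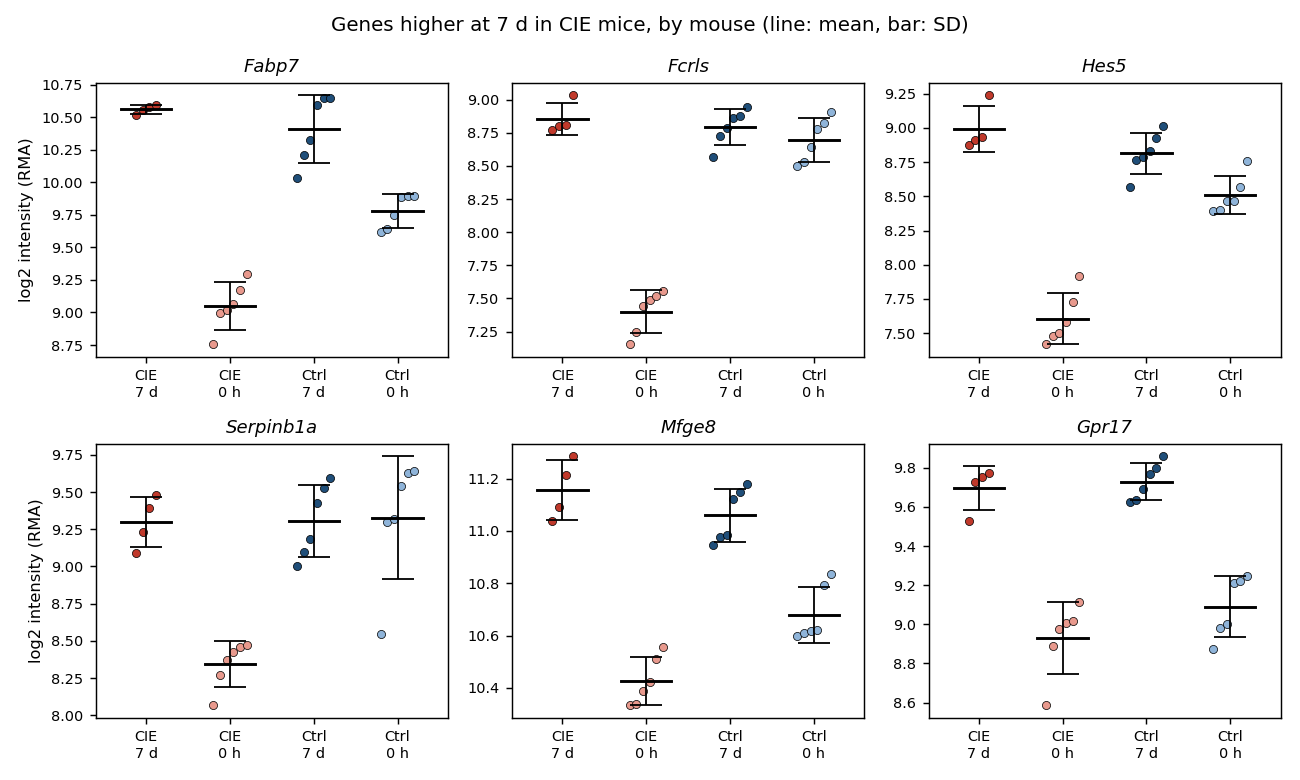
Log2 intensity of 6 genes in each CIE 7 d, CIE 0 h, Ctrl 7 d and Ctrl 0 h mouse (points), with the group mean (line) and SD (bar). In Fabp7, Fcrls, Hes5, Serpinb1a, Mfge8 and Gpr17 all CIE 7 d mice lie above all CIE 0 h mice.

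Among all genes 0.797% were called higher and 2.72% lower in CIE mice, and 0.236% higher and 2.7% lower in Ctrl mice. In the oligodendrocyte lineage 1 of 9 precursor markers rose, Gpr17, a receptor of cells about to mature, by 0.76 ± 0.09 in CIE and 0.64 ± 0.08 in Ctrl mice, both called. Of 18 oligodendrocyte genes 1 rose, Ugt8a, which makes a myelin galactolipid (0.39 ± 0.08). Mbp, the myelin basic protein, spanned 14.12 to 14.16 in CIE 7 d mice and 14.09 to 14.16 in CIE 0 h mice, near the top of the array's range. Of 17 astrocyte markers 1 was higher and 2 lower in CIE mice, and 1 higher and 5 lower in Ctrl mice. The lower ones in CIE mice were Gjb6 and Aldh1l1, given above, and the higher one was the glutamate transporter Slc1a3, by 0.20 ± 0.05 in CIE and 0.23 ± 0.04 in Ctrl mice. Of 15 endothelial markers 3 were higher and 1 lower in CIE mice, and 7 had a mean change below 0. Kdr, a receptor for vascular growth factor, rose by 0.37 ± 0.08, Emcn by 0.41 ± 0.09 and Itm2a by 0.31 ± 0.07, while Slc2a1 was lower (-0.43 ± 0.08, adjusted p = 0.000159). Of 12 mural cell markers 1 was called, Vtn, which rose by 0.32 ± 0.07 in CIE mice. The difference from Ctrl mice was called for Kdr (adjusted p = 0.00651) and Vtn (adjusted p = 0.00719), and not for Emcn (adjusted p = 0.0162) or Itm2a (adjusted p = 0.0839). The called differences of Kdr and Vtn were lost in 14 and 11 of the 22 fits without 1 array (adjusted p up to 0.0269 for Kdr and 0.0245 for Vtn). Of 22 genes of cell division 2 rose, Mcm5, a subunit of the replication helicase (0.72 ± 0.14), and Ccnd1, a cyclin (0.37 ± 0.09), while Hmgb2 was lower. Mcm5 read 7.82, 7.29, 7.26 and 7.27 in CIE 7 d mice, against 6.33, 6.67 and 6.99 in CIE 0 h mice, with 1 CIE 7 d mouse, replicate 27, above the rest, and without it the adjusted p was 0.0142. For other rises the call in CIE mice was lost in 7 such fits for Ccnd1 (adjusted p up to 0.0411), 6 for Slc1a3 (0.0277), 3 for Itm2a (0.0406), 3 for Emcn (0.0139), 3 for Vtn (0.0161), 2 for Ugt8a (0.0106) and 1 for Kdr (0.0147, without CIE 7 d replicate 45).

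Further rises named by size were Wfdc18, Adamts1, Mpp4, Tst, Alas2 and the predicted genes Gm11627 and 4930506C21Rik. Tst, a mitochondrial sulfur transferase, read 8.81, 8.99, 8.99 and 9.22 in CIE 7 d mice, against 8.16, 8.41 and 8.49 in CIE 0 h mice. Its change was 0.63 ± 0.08 in CIE and 0.01 ± 0.08 in Ctrl mice, with a called difference (adjusted p = 0.00151). Adamts1, a protease of the extracellular matrix, rose by 0.64 ± 0.12 in CIE mice, Wfdc18 by 0.74 ± 0.12, Gm11627 by 0.75 ± 0.13 and 4930506C21Rik by 0.69 ± 0.11. Of these Gm11627 was also called higher in Ctrl mice (0.57 ± 0.12, adjusted p = 0.0015). The difference from Ctrl mice was not called for Adamts1 (adjusted p = 0.0182), Wfdc18 (0.0667), Gm11627 (0.806) or 4930506C21Rik (0.28). Mpp4, a scaffold protein, rose by 0.63 ± 0.11 in CIE mice, against -0.26 ± 0.10 in Ctrl mice (adjusted p of the difference 0.000567), and Wdr78, a protein of motile cilia, by 0.62 ± 0.08, against -0.12 ± 0.07 in Ctrl mice (adjusted p of the difference 3.85e-05). Alas2, which starts heme synthesis in red blood cells, rose by 0.66 ± 0.16 in CIE mice (adjusted p = 0.00597), and its difference from Ctrl mice was not called (adjusted p = 0.0595). The mean level of 3 red blood cell genes, Alas2 among them, spanned 5.13 to 5.34 in CIE 7 d mice and 4.85 to 5.10 in CIE 0 h mice. The other members of this list changed by 0.0033 and 0.0039 in CIE mice, so the separation came from Alas2 itself. The part of blood in the samples was not tested. Small rises in CIE mice were called for P4ha1, a collagen hydroxylase (0.29 ± 0.06), Unc13a, a priming factor of synaptic vesicles (0.41 ± 0.10), the splicing factors Hnrnpa2b1 (0.28 ± 0.06) and Hnrnph1 (0.14 ± 0.03), and Smarce1, a chromatin remodeller (0.21 ± 0.05). In the 22 fits without 1 array the call was lost 8 times for Hnrnph1 (adjusted p up to 0.0481), 7 for Alas2 (0.0365), 6 for Unc13a (0.0391) and 4 for Smarce1 (0.0174).

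Calls among neuronal signalling genes were rare, as they were among all genes (3.52% called). Of 37 BNST neuropeptides and receptors 0 were called in CIE mice by limma (4 had an unadjusted p under 0.05), with a median of -0.05 and changes between -0.49 and 0.29. Crh read 10.71, 10.70, 10.32 and 10.12 in CIE 7 d mice, against 9.96, 10.49 and 10.76 in CIE 0 h mice, with wide overlap (0.04 ± 0.22, adjusted p = 0.976). Its receptor Crhr1 differed by 0.06 ± 0.11 (adjusted p = 0.899). Npy2r, a receptor of neuropeptide Y, spanned 9.39 to 9.62 in CIE 7 d mice and 9.67 to 9.86 in CIE 0 h mice, without overlap and without a call (adjusted p = 0.0673). Oprk1, the kappa opioid receptor, differed by -0.22 ± 0.09 in CIE mice (adjusted p = 0.189). No gene was called in CIE mice among 25 glutamate receptor and scaffold genes, 30 proteasome subunits, 31 respiratory chain genes or 20 ribosomal proteins, and a missing call is not evidence of equal levels.

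Immediate early genes, which neurons switch on within minutes of activity, had 0 of 22 called in CIE mice by limma, beside 3.52% of all genes. Of the 22, 8 had an unadjusted p under 0.05, and the median was 0.16. Fos read 7.81, 8.74, 8.58 and 8.23 in CIE 7 d mice, against 7.99, 8.47 and 8.71 in CIE 0 h mice. Its change was -0.12 ± 0.16 in CIE mice (adjusted p = 0.864) and -0.77 ± 0.14 in Ctrl mice (adjusted p = 0.000495), and the difference was not called (adjusted p = 0.14). In CIE mice Egr1 differed by 0.63 ± 0.18 (adjusted p = 0.0351), Jun by -0.31 ± 0.09 (adjusted p = 0.0345), Npas4 by 0.57 ± 0.19 (adjusted p = 0.0695) and the neurotrophin Bdnf by 0.11 ± 0.16 (adjusted p = 0.875). Of 19 clock genes 1 was called in CIE mice, beside 3.52% of all genes. It was Tef, an output transcription factor (-0.28 ± 0.06), whose call was lost in 2 of the 22 fits without 1 array (adjusted p up to 0.0205). Ciart, a repressor of the clock, spanned 8.09 to 8.29 in CIE 7 d mice and 8.30 to 8.62 in CIE 0 h mice, a difference that was not called (adjusted p = 0.137). In Ctrl mice Ciart rose by 0.56 ± 0.08 (adjusted p = 5.75e-06), and the difference of the changes was called (-0.79 ± 0.12, adjusted p = 8.11e-05). Cirbp, an RNA-binding protein induced by cold, differed by -0.17 ± 0.08 in CIE mice (adjusted p = 0.267).

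Both ends of the week were also set beside the Ctrl mice, with which these comparisons share arrays. At 7 d 0 probesets (0%) were called between CIE and Ctrl mice by limma. An unadjusted p under 0.05 was found for 2226 of 45037, a number near what chance gives at that threshold. At 0 h 1079 probesets (2.4%) were called. Plin4 averaged 6.99 ± 0.31 (SD, n = 4) in CIE 7 d mice and 7.32 ± 0.20 (SD, n = 6) in Ctrl 7 d mice, and 10.20 ± 0.30 (SD, n = 6) in CIE 0 h mice and 7.69 ± 0.40 (SD, n = 6) in Ctrl 0 h mice. At 0 h Aox1 differed between CIE and Ctrl mice by -0.33 (adjusted p = 0.0153) and Hspa5 by 0.02 (adjusted p = 0.903), neither called.

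Between CIE 7 d and CIE 72 h mice 1 probeset (0.00222%) was called by limma, and 6428 of 45037 had an unadjusted p under 0.05. The called probeset was that of Ddo, an oxidase of D-aspartate, named after its value was seen, at 8.19 ± 0.13 (SD, n = 4) in CIE 7 d mice and 8.89 ± 0.12 (SD, n = 6) in CIE 72 h mice (-0.70 ± 0.11, adjusted p = 0.00363). The call was lost without any 1 of 6 arrays, CIE 72 h replicates 3, 35 and 63 and CIE 7 d replicates 27, 45 and 65. The means of single genes took different courses over the week. In CIE mice Plin4 averaged 10.20 at 0 h, 9.61 at 8 h, 7.10 at 72 h and 6.99 at 7 d. Ada averaged 7.45 at 0 h, 6.12 at 8 h, 5.55 at 72 h and 5.73 at 7 d, with most of the fall in these means by 8 h. Igtp instead averaged 9.92 at 0 h, 10.15 at 8 h, 8.02 at 72 h and 7.81 at 7 d. Hes5 had its lowest mean at 8 h, with 7.61 at 0 h, 6.98 at 8 h, 8.96 at 72 h and 8.99 at 7 d. Fabp7 was higher at 7 d than at 72 h by 0.55 ± 0.12, a step that was not called (adjusted p = 0.0363).

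**Figure D5:**
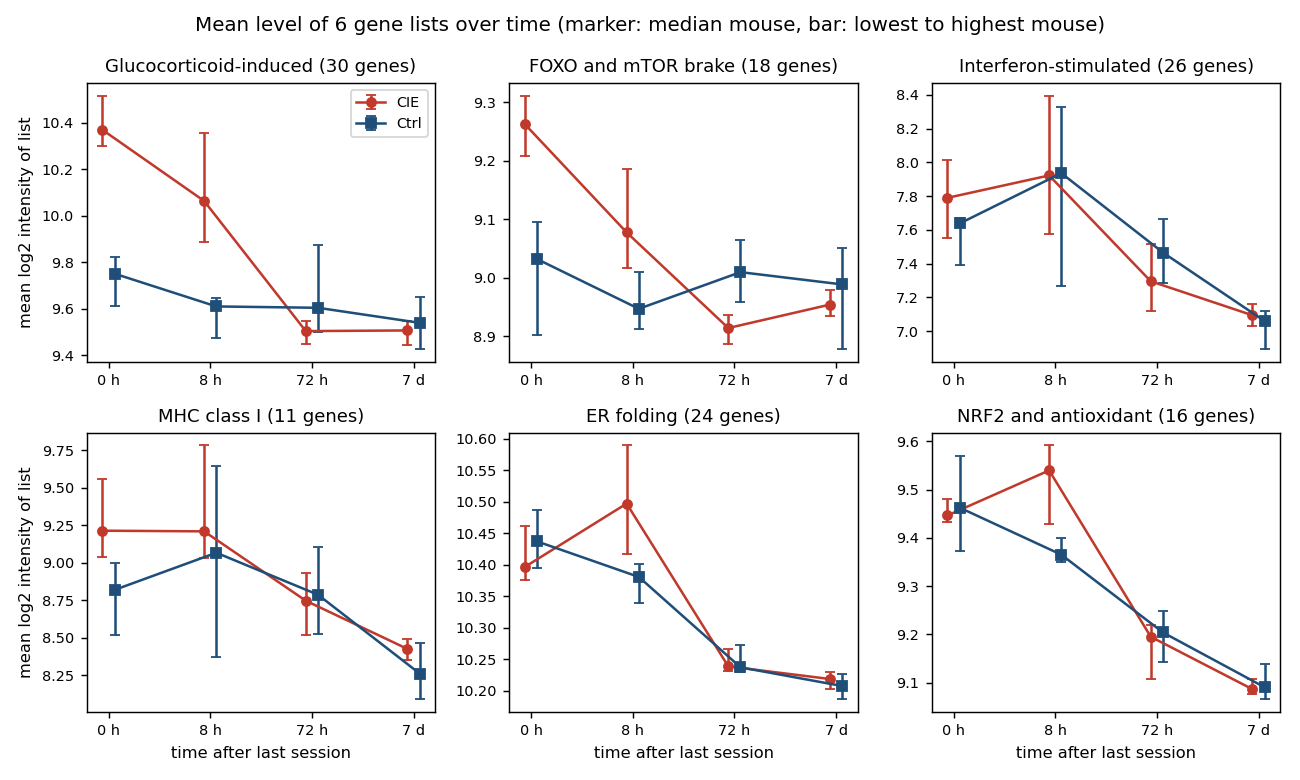
Mean log2 intensity of 6 gene lists in CIE (circles) and Ctrl (squares) mice at 0 h, 8 h, 72 h and 7 d after the last session, where markers are the median mouse and bars run from the lowest to the highest mouse. The glucocorticoid list had medians of 9.51 at 7 d and 10.37 at 0 h in CIE mice and of 9.54 at 7 d and 9.75 at 0 h in Ctrl mice, and the interferon list 7.09 at 7 d and 7.79 at 0 h in CIE mice and 7.06 at 7 d and 7.64 at 0 h in Ctrl mice.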

How the data were processed

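RNA of the BNST of 46 mice was measured on 1 Affymetrix mouse array each. The authors deposited log2 intensities. Per the study's methods these had robust multi-array average (RMA) background correction and quantile normalization within each hybridization batch, then quantile normalization over all arrays and ComBat to remove the batch. Which array belonged to which batch could not be read from the labels or methods (not given in the sources used here), and the fit therefore has no batch term. Removing it before deposit can affect the p-values. The deposited log2 values were used unchanged. The study describes 6 mice per group, and 4 arrays of CIE 7 d were analysed here. Array intensities carry no read depth, and the number of arrays limits the precision.

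The fit was a means model of the 8 groups that held every array (46), run two-sided with lmFit and eBayes of limma (version 3.58.1, under R 4.3.3), with Benjamini-Hochberg adjustment over all 45037 probesets and a threshold of 0.01, as in the study. Contrasts were CIE 7 d minus CIE 0 h, the same in Ctrl mice, the difference of both, CIE minus Ctrl at 0 h and at 7 d, and CIE 7 d minus CIE 72 h. Of the probesets 34945 had 1 gene symbol in the platform annotation, 932 several and 9160 none, and 34741 of the first matched a RefSeq gene ID. The probeset with the highest mean stood for each gene.

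Genes named in the text were the 15 largest rises and the 15 largest falls among called genes, up to 4 called members of each list, the 10 smallest p of the difference and a fixed set, of which Rbm3 had no probeset of its own symbol alone. Not every gene so chosen is printed: 103 were followed under the alternatives. The members and the 44 gene lists were chosen with earlier results of these data known, so a list is no independent support for its direction. The fit was tested on simulated data. Promoters came from RefSeq (GRCm38.p6). Alternatives used fewer groups, array weights, aligned array medians, a trended and robust prior, a filter on level, a threshold of 0.05, other probesets of a gene, and each array left out in turn.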

Additional observations from a re-analysis of the deposited data

Results flagged for a closer look

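Among 206 pairs of a gene and a CIE group (103 genes, CIE 7 d and CIE 0 h), 10 had 1 mouse far from the others of its group by Dixon's criterion, a number near what chance gives for a criterion at 0.05. Fcrls was 9.03 in CIE 7 d replicate 27, the highest of its group, with the next mouse at 8.81. Hes5 was 9.24 in CIE 7 d replicate 59, the highest of its group, with the next mouse at 8.93. Mcm5 was 7.82 in CIE 7 d replicate 27, the highest of its group, with the next mouse at 7.29. Gbp6 was 6.97 in CIE 7 d replicate 65, the lowest of its group, with the next mouse at 7.21. Ddit4 was 9.92 in CIE 7 d replicate 59, the highest of its group, with the next mouse at 9.62. Manf was 11.03 in CIE 0 h replicate 67, the highest of its group, with the next mouse at 10.95. Oasl2 was 5.88 in CIE 7 d replicate 65, the highest of its group, with the next mouse at 5.65. Slc2a1 was 11.46 in CIE 0 h replicate 19, the lowest of its group, with the next mouse at 11.70. Pmch was 11.99 in CIE 0 h replicate 67, the lowest of its group, with the next mouse at 13.40. Oprk1 was 8.05 in CIE 0 h replicate 17, the highest of its group, with the next mouse at 7.85.

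The change between 7 d and 0 h differed between CIE and Ctrl mice for 29 of the 103 genes by the test of the difference itself (limma, adjusted p of 0.01 or less). On the log2 scale the CIE change minus the Ctrl change was negative for Plin4 (-2.84), Cdkn1a (-2.31), Arrdc2 (-1.66), Ada (-1.54), Gm19439 (-1.20), Gabrr2 (-1.14), Sult1a1 (-1.05), Pdk4 (-0.97), Hmgb2 (-0.97), Fkbp5 (-0.96), Txnip (-0.94), Ddit4 (-0.82), Ciart (-0.79), Htra1 (-0.67), Nfkbia (-0.58), Arrdc3 (-0.56) and Tef (-0.42). It was positive for Fcrls (1.36), Hes5 (1.08), Serpinb1a (0.98), Mpp4 (0.89), Fabp7 (0.88), Wdr78 (0.74), Tst (0.62), Ccnd1 (0.59), Kdr (0.49), P4ha1 (0.48), Vtn (0.45) and Smarce1 (0.37).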

How the results depend on the processing

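No paired analysis was possible because each replicate number belongs to 1 mouse and no number occurs in more than 1 group. Of the 22 fits that left out 1 array, 10 left out a CIE array and 12 a Ctrl array. Leaving out a Ctrl array cannot move the change in CIE mice and alters its call only through the estimate of the spread. Of the 89 called genes followed in CIE mice, 62 kept direction and call in all 22 fits. The other 27 lost the call in at least 1, most often S1pr3 and Sc5d (9 fits each), Hnrnph1 (8), Alas2, Ccnd1 and Kcna1 (7 each). Of the 29 called differences between CIE and Ctrl 10 lost the call in at least 1 such fit, most often Nfkbia and Kdr (14 each), Pdk4 (13), Gabrr2 (12), Vtn (11) and Ccnd1 (10). Under other fits the call in CIE mice was lost for 17 of the 89 genes with the 4 groups of 0 h and 7 d. It was lost for 10 with the 2 groups compared, 7 with arrays of 1 treatment, 1 with aligned medians and 0 with array weights. None of the 89 genes changed direction in these. Fits with fewer groups leave the difference of 2 group means unchanged, so they could not turn a direction. The cause of the lost calls was not tested.

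The CIE count of 1122 probesets was 2377 with array weights and 2126 at 0.05. The Ctrl count of 1006 was 592 with the 4 groups, 507 with Ctrl arrays alone, 130 with the 2 groups, 501 with array weights and 2784 at 0.05. The count of called differences, 197, was 99 with the 4 groups and 540 at 0.05. For CIE 7 d against CIE 72 h, with alternatives chosen after seeing the data, the count of 1 was 0 with the 2 groups, 97 with array weights, 10 with probesets at or above the median level and 71 at 0.05. With 1 array left out the counts ran over 758 to 1283 (CIE), 532 to 2129 (Ctrl), 126 to 295 (difference), 0 to 1 (CIE 7 d against Ctrl 7 d) and 0 to 9 (CIE 7 d against CIE 72 h).

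Other probesets had the opposite sign for Mcm5 (-0.0374), Fbln5 (0.0491), Tap1 (0.11), Tef (0.0302), Aldh1l1 (0.0884), Sc5d (0.063), Kl (0.0199), Tsc22d3 (0.141), Crhr1 (-0.0106), Bdnf (-0.102) and Mbp (-0.19, -0.0126, -0.147, -0.00875 and -0.013), as log2 changes in CIE mice. With 1 array left out the sign turned for Fos (0.061), Crh (-0.0535, -0.043 and -0.0408) and Crhr1 (-0.000729 and -0.0163), none of them called, and over all such fits their changes ran over -0.247 to 0.061 for Fos, -0.0535 to 0.154 for Crh and -0.0163 to 0.15 for Crhr1.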
